A study of Homo sapiens with 24 samples.

Results

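Heterotrimeric G proteins were followed on expression arrays of P3HR1, an established cell line from a Burkitt lymphoma, a cancer of germinal centre B cells. The genes were GNA12, GNA13, GNAI2, GNAI3, GNAQ, GNAS, GNB1, GNG2 and GNG7, which encode subunits, and ARHGEF1, which encodes an effector. These 10 genes, of 19775 with a probe set of their own, were chosen by name, with the measured differences between miR-28 and control cells already known. GNG2 had risen at both times in those comparisons, so they describe the genes and do not test them. The genes had 38 of the 41091 probe sets that carry 1 gene symbol, and each probe set was analysed separately. A filter on dim probe sets kept those with a mean log2 intensity above 6.108 (an intensity of about 61 before the log), which left 29 of the 38 and 27306 of all.

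All cells carried a pRTS1 vector and all were treated with doxycycline, which switches it on. miR-28 cells made green fluorescent protein (GFP) together with the precursor of the microRNA miR-28, and control cells made GFP alone. The 4 groups were miR-28 cells at 24 h, control cells at 24 h, miR-28 cells at 12 h and control cells at 12 h, with 6 arrays in each. Per genotype there were 2 bulk populations, A and B, which were not clones, and each was induced 3 times per time point. The labels give the dose as 0.1 ug/ml in one field and as 1 ug/ml in another, alike for every group. No uninduced cells were analysed here, so differences that the populations carried before induction cannot be told apart from effects of induction. In RNA from whole cultures, fewer cells with a transcript and less of it per cell also cannot be told apart.

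A heterotrimeric G protein sits under a seven-helix receptor in the cell membrane. When a ligand binds the receptor, the alpha subunit takes up GTP and separates from the beta-gamma dimer, and both parts then act on effectors. In germinal centre B cells, the receptors S1PR2 and P2RY8 signal through GNA13 to ARHGEF1, which activates the small GTPase RHOA and keeps the cells within the follicle, and GNA13 is recurrently inactivated in lymphomas of germinal centre origin. Gi subunits such as GNAI2 and GNAI3 couple chemokine receptors, GNAS activates adenylyl cyclase, and GNAQ activates phospholipase C beta.

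A microRNA recognises messenger RNAs mainly through its seed, bases 2 to 8. The miR-28 hairpin gives the mature products miR-28-5p and miR-28-3p. The groups differ in the precursor that releases both, but the reference used here held no sequence for miR-28-5p. Only that of miR-28-3p is shown, with the seed in capitals and the bases given 5′ to 3′. It lies at chr3:188688834-188688855 on the plus strand of GRCh38.p14, as RefSeq gives it.
hsa-miR-28-3p: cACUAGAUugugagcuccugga

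The median intensity of an array lay between 73.37 and 93.41. Its group mean was 80.87 in miR-28 cells and 84.32 in control cells at 24 h, and 87.02 in miR-28 cells and 85.36 in control cells at 12 h. Median centring therefore raises the miR-28 values at 24 h relative to the other groups, and arrays of the same group correlated at r = 0.94 to 0.96 over probe sets. The B cell markers MS4A1, CD79A, PAX5 and CD22 had median intensities of 4216.5 to 18559.2, and the germinal centre markers MME and BCL6 had 3426.1 and 9194.9. Markers of T cells, myeloid cells, NK cells, fibroblasts and epithelial cells had medians of 8.91 to 127.4. Of these markers, CD3E (95.7), CSF1R (85.5), ITGAM (83.7), NCAM1 (89.7) and COL1A1 (127.4) passed the filter on dim probe sets. Passing the filter therefore does not by itself set a probe set apart from these markers. Control B2 at 24 h and miR-28 B2 at 12 h had an ACTB 3′ to 5′ signal ratio, a measure of RNA integrity, above 1 on the log2 scale, at 1.59 and 1.05, and values without them are given where they bear on a result.

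GNG2 was the member that differed most between genotypes. GNG2 encodes a gamma subunit, which anchors the beta-gamma dimer to the membrane. Its probe set 224964_s_at was higher in miR-28 cells than in control cells at both times, with no overlap between the groups. Of the 29 member probe sets tested at 24 h, limma called 1 higher in miR-28 cells, this one, and 0 lower, while 2.75% of all 27306 probe sets were called in either direction. At 12 h it again called 1 higher, the same one, and 0 lower, against 0.165% of all. Before adjustment, 7 member probe sets at 24 h and 2 at 12 h had a p under 0.05, as had 15.7% and 8.02% of all. Since these contrasts put the genes forward, nothing is read from the counts.

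At 24 h, GNG2 224964_s_at had intensities of 473.2, 310.7 and 535.2 in miR-28 population A and 350.5, 336.7 and 374.0 in miR-28 population B. Control cells at 24 h had 179.6, 164.8 and 165.5 in population A and 69.3, 281.8 and 95.6 in population B. Each miR-28 array was above each control array, and the highest control array, B2, was one of those with a high ACTB ratio. The means were 396.7 ± 88.0 in miR-28 cells and 159.5 ± 74.4 in control cells (SD, n = 6 each), a difference of 1.37 ± 0.27 on the log2(intensity + 8) scale (SE). Without control B2 at 24 h the difference was 1.54.

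At 12 h, GNG2 224964_s_at had 292.3, 415.8 and 285.7 in miR-28 population A and 221.5, 224.9 and 308.7 in miR-28 population B. Control cells at 12 h had 137.8, 146.1 and 59.7 in population A and 62.7, 76.1 and 138.9 in population B. All miR-28 arrays were again above all control arrays, with means of 291.5 ± 70.9 in miR-28 cells and 103.6 ± 41.5 in control cells (SD, n = 6 each). The control signal was dim: its mean at 12 h lay within the medians of markers of other cell types, 8.91 to 127.4. The control mean at 24 h, 159.5, lay above them. The difference was 1.48 ± 0.27 on the log2 scale (SE). With the populations of letter A alone the difference was 1.54 at 12 h and 1.30 at 24 h, and with those of letter B 1.43 and 1.45. No call was made in these fits, and the letters are not known to pair populations across genotypes. Mean log2 values at 12 h were 8.39 (A) and 8.0 (B) in miR-28 cells, and 6.85 and 6.58 in control cells. At 24 h they were 8.77 and 8.5 in miR-28 cells, and 7.47 and 7.05 in control cells. At 12 h the call was also lost without control B1, where the difference was 1.36, and it was kept at 1.56 without both arrays with a high ACTB ratio.

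**Figure D1:**
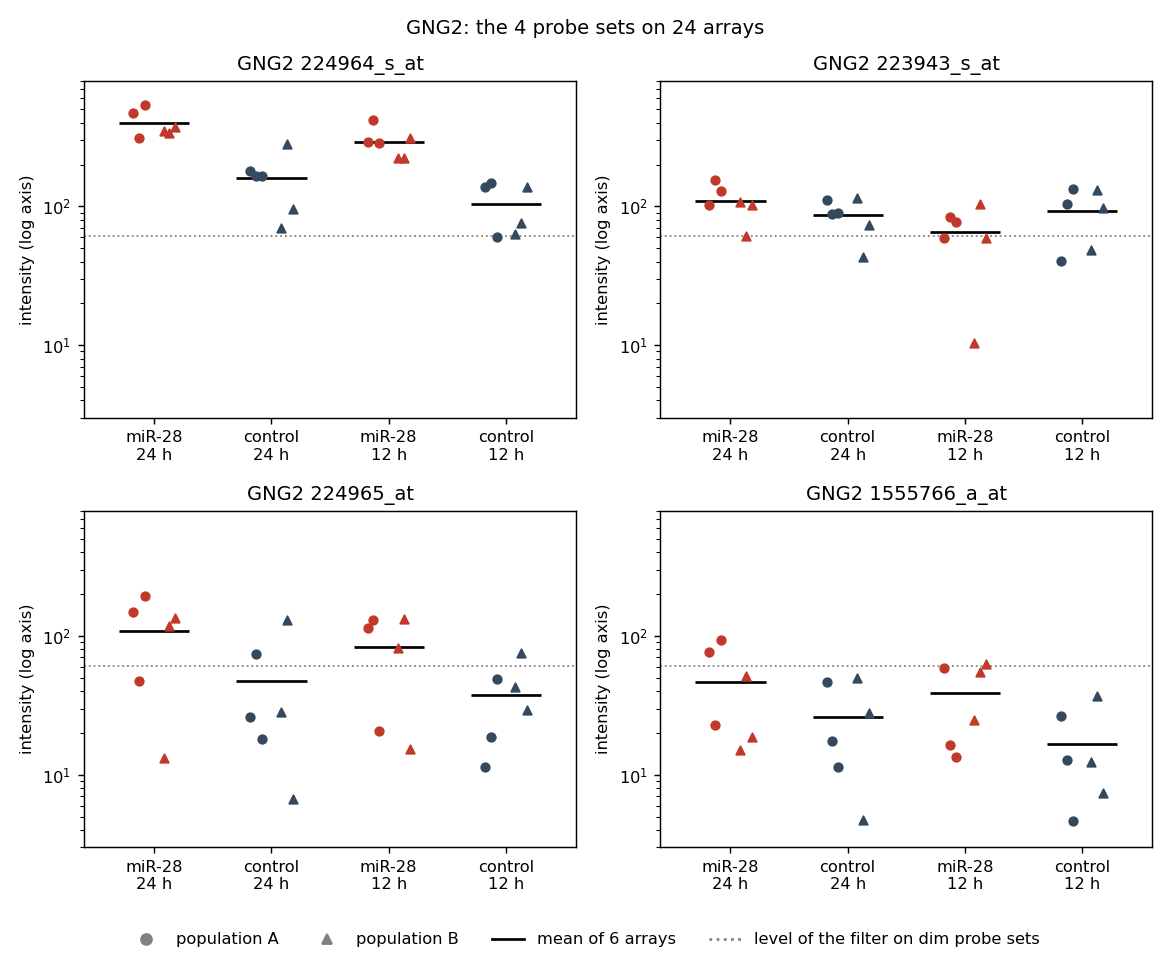
Intensity of the 4 GNG2 probe sets on the 24 arrays, on a log axis, by genotype and time. Population A is shown as circles and B as triangles, with a line for the mean of 6 arrays. For 224964_s_at the lowest miR-28 arrays, at 310.7 (24 h) and 221.5 (12 h), lie above the highest control arrays, at 281.8 and 146.1, whereas the groups of the other probe sets overlap.

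The other GNG2 probe sets were dimmer and overlapped between genotypes. The probe set 223943_s_at averaged 109.9 ± 31.7 in miR-28 cells and 86.5 ± 26.3 in control cells at 24 h, a difference of 0.33 ± 0.35 (log2, SE). At 12 h it averaged 65.7 ± 31.9 in miR-28 cells and 92.3 ± 39.9 in control cells, a difference of -0.52 ± 0.35. On average it therefore did not share the direction of 224964_s_at at that time. The lowest miR-28 array at 12 h was B1, at 10.3, and the others lay between 58.9 and 103.9. In fits without 1 array the 12 h difference ran between -0.70 and -0.15. Neither the 24 h nor the 12 h difference exceeded the spread between arrays. All of these means lay within the medians of markers of other cell types, 8.91 to 127.4. Below the filter, 224965_at averaged 109.3 ± 67.3 in miR-28 cells and 47.2 ± 46.7 in control cells at 24 h, and 82.7 ± 53.3 in miR-28 cells and 37.7 ± 23.1 in control cells at 12 h. The differences of this dim probe set were 1.16 ± 0.59 at 24 h and 0.82 ± 0.59 at 12 h. Also below the filter, 1555766_a_at averaged 46.4 ± 33.2 in miR-28 cells and 26.3 ± 18.6 in control cells at 24 h, and 38.7 ± 22.9 in miR-28 cells and 16.7 ± 12.4 in control cells at 12 h. It differed by 0.63 ± 0.43 at 24 h and by 0.89 ± 0.43 at 12 h. Both dim probe sets were higher in miR-28 cells on average, and their arrays overlapped with those of control cells.

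GNG7, another gamma subunit, separated the genotypes at 24 h on its brightest probe set only. Its brightest probe set, 206896_s_at, had a lowest, median and highest intensity of 2184.4, 2356.2 and 2705.0 in miR-28 cells at 24 h, against 1163.8, 1834.8 and 2087.5 in control cells at 24 h. The groups did not overlap, and the difference was 0.52 ± 0.15 (log2, SE). At 12 h the values were 2042.0, 2249.1 and 2975.9 in miR-28 cells and 1641.3, 2019.8 and 2784.3 in control cells, which overlapped, with a difference of 0.23 ± 0.15. Among the 29 tested, the groups were apart for 2 probe sets at 24 h, those of GNG2 and GNG7, and for 1 at 12 h, that of GNG2, where 2.46% and 0.67% of all probe sets were apart in either direction.

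The GNG7 difference was uneven between probe sets and depended on the populations compared. With those of letter A alone it was 0.26 at 24 h and -0.12 at 12 h, and with those of letter B 0.77 and 0.58. The letters are not known to pair populations across genotypes. Mean log2 values at 24 h were 11.27 (A) and 11.23 (B) in miR-28 cells, and 11.01 and 10.46 in control cells. At 12 h they were 11.05 and 11.43 in miR-28 cells, and 11.16 and 10.85 in control cells. The 24 h difference was not called in the fit as designed. It was called without control A1 at 12 h (0.52) and without control A1, A2 or A3 at 24 h (0.58 each). Over the 24 fits without 1 array it ran between 0.40 and 0.58, and it was called in 4 of them. The lowest control array at 24 h was B2, at 1163.8, one of those with a high ACTB ratio. A second probe set, 228831_s_at, averaged 643.5 ± 87.1 in miR-28 cells and 501.1 ± 59.8 in control cells at 24 h (difference 0.35 ± 0.11), and 660.5 ± 93.7 in miR-28 cells and 668.5 ± 100.9 in control cells at 12 h (difference -0.01 ± 0.11). Its groups overlapped at both times, at 24 h with the lowest miR-28 array at 546.0 and the highest control array at 550.7. The dim probe set 232043_at had the opposite sign, at -0.74 ± 0.50 at 24 h and -0.91 ± 0.50 at 12 h, with groups that overlapped.

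GNB1 encodes a beta subunit, which pairs with gamma subunits. Its brightest probe set, 200746_s_at, averaged 9416.6 ± 1433.2 in miR-28 cells and 9827.7 ± 1761.2 in control cells at 24 h, and 8938.3 ± 1080.1 in miR-28 cells and 8791.4 ± 1247.3 in control cells at 12 h. The differences were -0.06 ± 0.12 at 24 h and 0.03 ± 0.12 at 12 h, within the spread between arrays. Over the 3 GNB1 probe sets the genotype differences ran between -0.06 and 0.07.

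**Figure D2:**
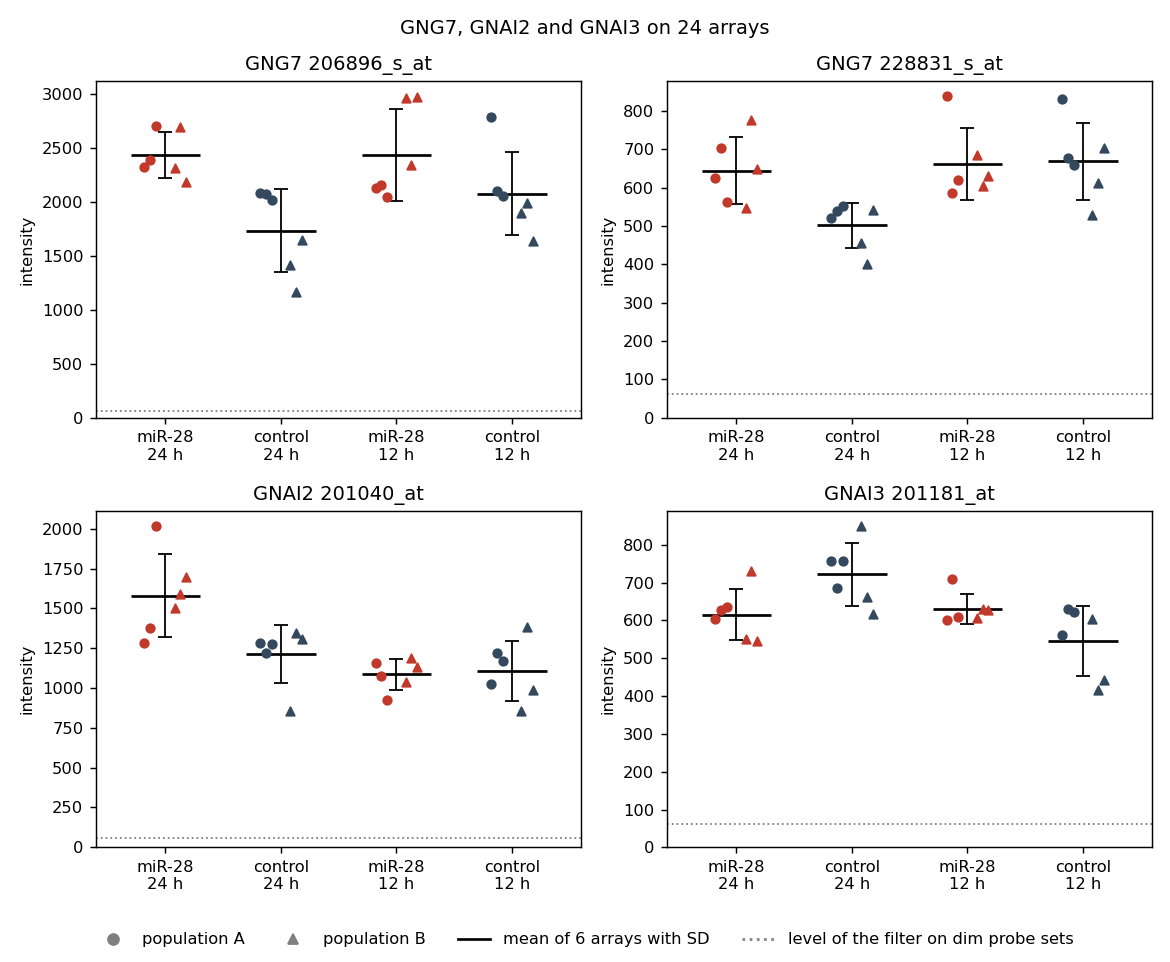
Intensity of GNG7 206896_s_at and 228831_s_at, GNAI2 201040_at and GNAI3 201181_at on the 24 arrays by genotype and time. Population A is shown as circles and B as triangles, with bars for the mean and SD of 6 arrays. GNG7 206896_s_at separates miR-28 from control cells at 24 h, whereas the groups of GNG7 228831_s_at overlap. GNAI2 is higher at 24 h than at 12 h in miR-28 cells. GNAI3 201181_at has a higher mean at 24 h than at 12 h in control cells.

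GNA13, the alpha subunit of the G12/13 class that germinal centre B cells use, was slightly lower in miR-28 cells in its brightest probe set, without passing the call. At 24 h, 224761_at had 11866, 10586, 10850, 11501, 10036 and 11192 in miR-28 arrays A1 to A3 and B1 to B3, against 11243, 12064, 12283, 12109, 15486 and 11496 in control arrays in the same order. The means were 11005 ± 657.4 in miR-28 cells and 12446.8 ± 1541.2 in control cells (SD, n = 6 each), a difference of -0.17 ± 0.08 (log2, SE). The groups overlapped, and the highest control array was again B2, without which the difference was -0.11.

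At 12 h, GNA13 224761_at ran between 11034.3 and 12946.7 in miR-28 cells with a median of 12026.6, and between 11948.7 and 15846.0 in control cells with a median of 13084.0. The difference was -0.16 ± 0.08 with groups that overlapped. The probe set 227539_at differed by -0.11 ± 0.11 at 24 h, with a lowest, median and highest of 944.4, 1114.0 and 1223.1 in miR-28 cells and 1043.6, 1160.3 and 1352.3 in control cells. At 12 h it had 909.2, 1019.7 and 1141.2 in miR-28 cells and 852.8, 1124.1 and 1533.3 in control cells, a difference of -0.13 ± 0.11. The probe set 206917_at averaged 774.3 ± 113.4 in miR-28 cells and 748.7 ± 126.8 in control cells at 24 h, and 925.5 ± 163.2 in miR-28 cells and 932.0 ± 131.7 in control cells at 12 h. Its differences were 0.05 ± 0.13 at 24 h and -0.02 ± 0.13 at 12 h, and none of the 3 GNA13 probe sets separated the genotypes.

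**Figure D3:**
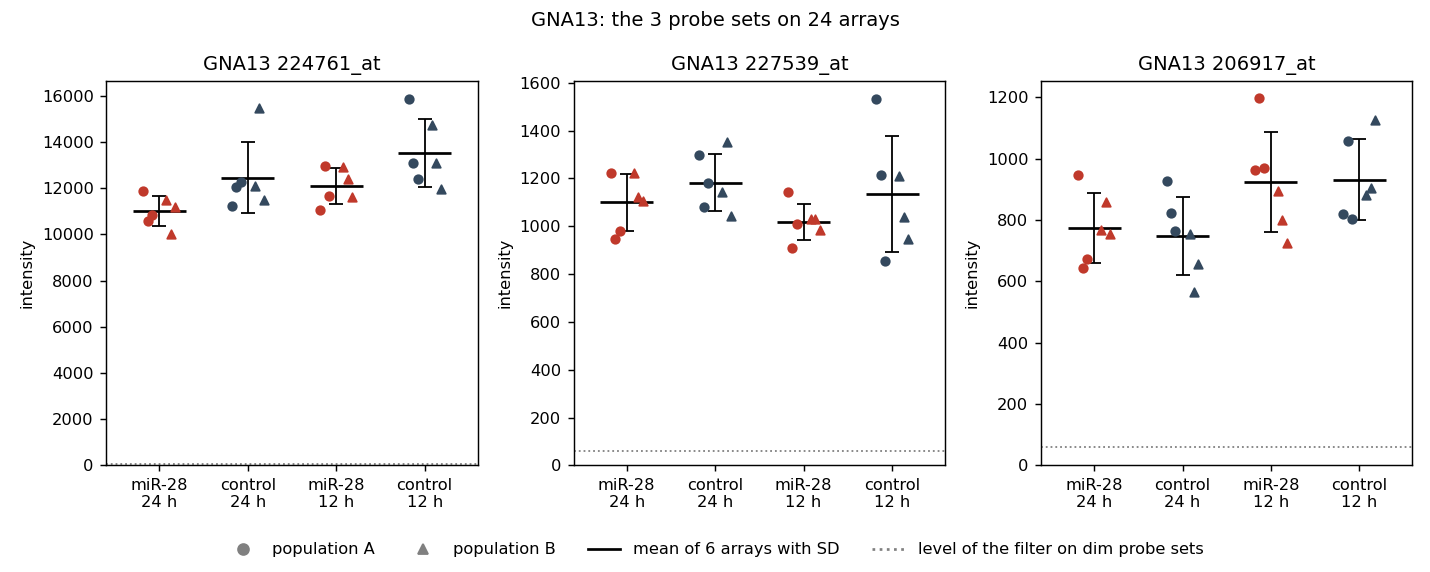
Intensity of the 3 GNA13 probe sets on the 24 arrays by genotype and time, with population A as circles and B as triangles and bars for the mean and SD of 6 arrays. For 224761_at the mean of miR-28 cells is below that of control cells at 24 h (11005 and 12446.8) and at 12 h (12093.6 and 13517.1), and the arrays overlap in each panel.

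GNA12, the other alpha subunit of that class, was not called on either of its probe sets. The brighter one, 224681_at, had a lowest, median and highest of 374.8, 569.3 and 719.6 in miR-28 cells and 459.3, 485.5 and 553.6 in control cells at 24 h, and 279.9, 396.7 and 605.6 in miR-28 cells and 322.9, 441.2 and 623.1 in control cells at 12 h. The differences were 0.16 ± 0.18 at 24 h and -0.18 ± 0.18 at 12 h. The second, 221737_at, averaged 199.4 ± 40.0 in miR-28 cells and 164.4 ± 86.7 in control cells at 24 h, where control A3 lay at 16.7, and 216.1 ± 41.4 in miR-28 cells and 214.4 ± 39.1 in control cells at 12 h. It differed by 0.56 ± 0.37 at 24 h and by 0.01 ± 0.37 at 12 h, within the spread between arrays. ARHGEF1, the guanine nucleotide exchange factor that GNA13 activates, had 490.6, 644.8 and 805.5 in miR-28 cells and 510.4, 728.0 and 788.0 in control cells at 24 h on 203055_s_at. At 12 h it had 416.7, 521.4 and 705.6 in miR-28 cells and 532.9, 621.3 and 953.2 in control cells, and the differences were -0.05 ± 0.15 at 24 h and -0.28 ± 0.15 at 12 h. Its second probe set, 1560445_x_at, differed by -0.60 ± 0.28 at 24 h and by -0.02 ± 0.28 at 12 h, and the arrays of all of these groups overlapped.

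GNAI2, an inhibitory alpha subunit through which chemokine receptors signal, averaged 1578.1 ± 260.0 in miR-28 cells and 1213.1 ± 180.4 in control cells at 24 h on its only probe set, 201040_at. At 12 h it averaged 1086.2 ± 97.4 in miR-28 cells and 1106.6 ± 188.7 in control cells. The genotype differences were 0.38 ± 0.12 at 24 h and -0.01 ± 0.12 at 12 h (log2, SE), and the arrays overlapped at both times. GNAI3, a related inhibitory subunit, differed by -0.23 ± 0.10 at 24 h and by 0.22 ± 0.10 at 12 h on 201181_at. Its brighter probe sets, 201180_s_at and 201179_s_at, lay between -0.06 and 0.08 at both times, so the pattern of 201181_at was not shared by them.

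GNAS, the stimulatory alpha subunit, had 12 probe sets, of which 10 passed the filter. Its brightest, 200780_x_at, had a lowest, median and highest of 31186.7, 34996.6 and 46990.4 in miR-28 cells and 32143.0, 37309.4 and 43541.8 in control cells at 24 h, and 35469.4, 38081.6 and 44357.2 in miR-28 cells and 30286.7, 36438.6 and 42586.5 in control cells at 12 h. The differences were -0.05 ± 0.11 and 0.11 ± 0.11, within the spread between arrays. The 10 GNAS probe sets ran between -0.12 and 0.06 at 24 h and between -0.45 and 0.19 at 12 h, and several of them, those ending in _x_at, can bind sequences that other transcripts share. GNAQ, the Gq alpha subunit, had 5 probe sets and none passed the filter: over all arrays their intensities lay between 2.46 and 153.5 with a median of 17.6, so GNAQ was not tested. Its brightest, 211426_x_at, had a lowest, median and highest of 12.5, 24.9 and 44.4 in miR-28 cells and 11.1, 39.4 and 119.3 in control cells at 24 h, and 12.3, 49.8 and 153.5 in miR-28 cells and 11.4, 38.9 and 55.0 in control cells at 12 h, with groups that overlapped.

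**Figure D4:**
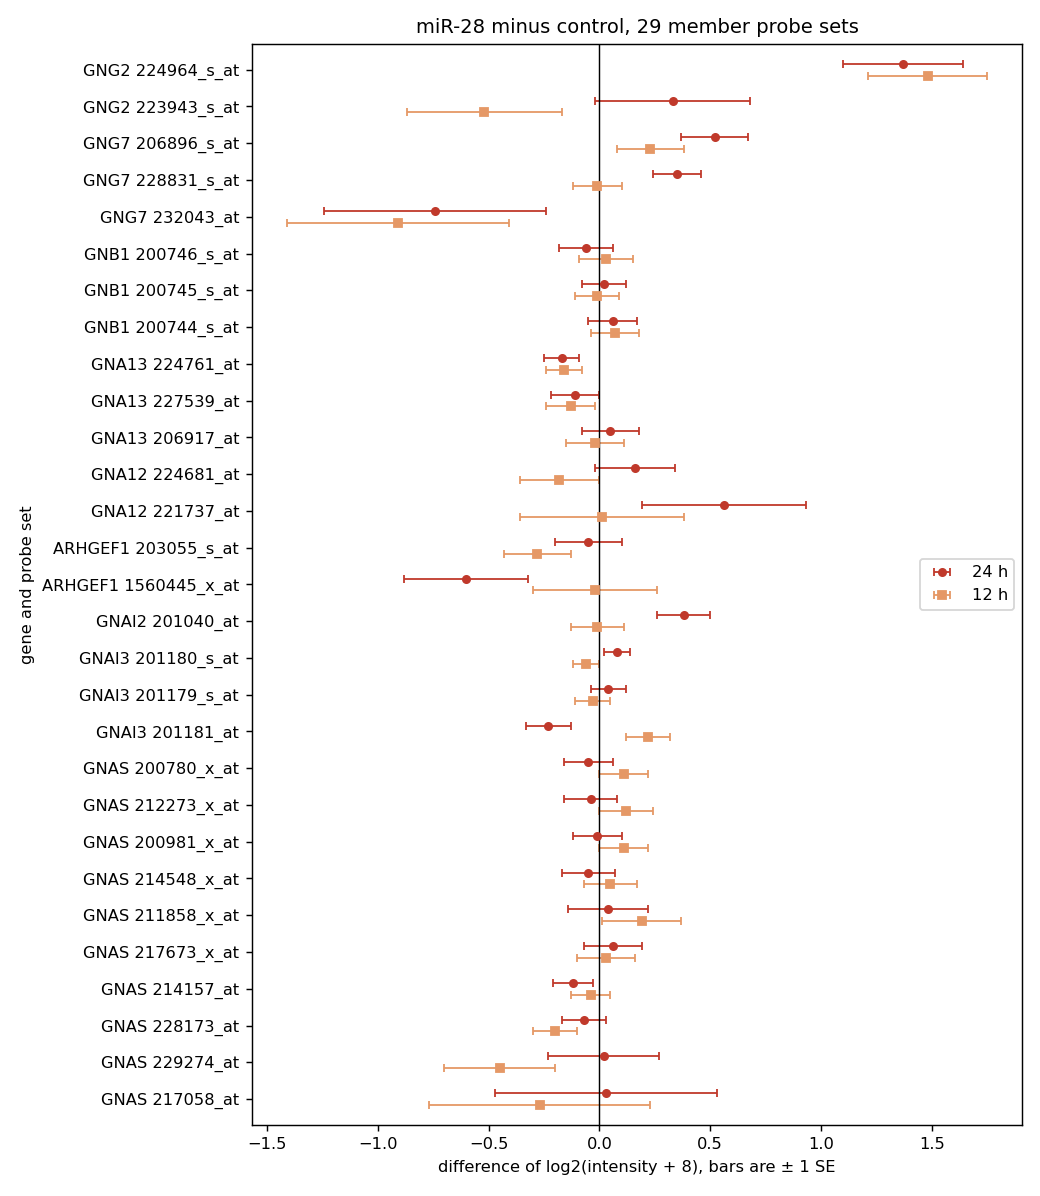
Difference between miR-28 and control cells at 24 h and at 12 h for the 29 member probe sets above the filter, as log2(intensity + 8) with bars of 1 SE. GNG2 224964_s_at lies at 1.37 (24 h) and 1.48 (12 h), and the medians over the 29 are 0.02 at 24 h and -0.01 at 12 h.

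Over their 29 probe sets, of which 10 were of GNAS, the members were centred near where all probe sets were. Their median genotype difference was 0.02 at 24 h and -0.01 at 12 h, beside 0.01 and 0.00 over all 27306 probe sets. With only the brightest probe set of each gene above the filter, the median was 0.08 at 24 h and -0.01 at 12 h. Whether the genotype difference itself changed, 24 h minus 12 h, was tested with an interaction term. limma called 0 of 29 member probe sets and 0 of all (0%), and 3 member probe sets and 1588 of all had an unadjusted p under 0.05. For GNG2 224964_s_at the term was -0.11 ± 0.39 (adjusted p = 0.989, limma), for GNAI2 0.39 ± 0.18 (adjusted p = 0.844) and for GNAI3 201181_at -0.45 ± 0.15 (adjusted p = 0.722), so no change of the effect with time was shown for any of these.

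GNAI2 rose between 12 h and 24 h in miR-28 cells, and it was the only member called there. Its lowest, median and highest intensities were 1284.1, 1545.6 and 2015.2 at 24 h, against 921.7, 1105.6 and 1187.8 at 12 h, so the times did not overlap. The difference, 24 h minus 12 h, was 0.53 ± 0.13 (log2, SE; adjusted p = 0.0351, limma over all probe sets). Among members 1 of 29 was called higher and 0 lower, with 4 at an unadjusted p under 0.05, while 1.88% of all probe sets were called. In control cells GNAI2 had 854.5, 1278.3 and 1342.2 at 24 h and 856.2, 1095.9 and 1384.3 at 12 h, a difference of 0.13 ± 0.13 (adjusted p = 0.667, limma). The interaction above does not show that the genotypes differed in this.

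The call for GNAI2 depended on single arrays. It was not made without miR-28 A2 (0.52, adjusted p = 0.0620), A3 (0.48, 0.0801), B1 (0.51, 0.0681) or B3 (0.54, 0.0508) at 12 h, by limma. Nor was it made without miR-28 A3 (0.45, adjusted p = 0.0805), B1 (0.53, 0.0538), B2 (0.52, 0.0631) or B3 (0.50, 0.0730) at 24 h. The difference kept its sign in each of these fits, and without both arrays with a high ACTB ratio it was 0.55 (adjusted p = 0.0445, limma).

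In control cells the only member called between times was GNAI3 201181_at. It had 757.7, 686.1, 757.7, 851.0, 662.8 and 617.2 at 24 h in control arrays A1 to A3 and B1 to B3, against 561.3, 629.8, 621.6, 604.0, 417.1 and 442.3 at 12 h in the same order. The times overlapped only where the lowest 24 h array, B3, lay below 2 of the 12 h arrays, and the difference was 0.41 ± 0.11 (log2, SE; adjusted p = 0.0400, limma over all probe sets). Among members 1 of 29 was called higher and 0 lower, with 4 at an unadjusted p under 0.05, while 3.09% of all probe sets were called. The brighter GNAI3 probe sets had the opposite sign in control cells, at -0.11 ± 0.07 for 201180_s_at and -0.19 ± 0.08 for 201179_s_at (adjusted p = 0.446 and 0.213, limma). In miR-28 cells 201181_at averaged 615.4 ± 68.2 at 24 h and 630.4 ± 40.3 at 12 h, a difference of -0.04 ± 0.11.

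This call too was lost without single arrays. At 12 h it was not made without control B1 (0.44, adjusted p = 0.0540, limma), B2 (0.33, 0.103) or B3 (0.35, 0.0941). At 24 h it was not made without control A1 (0.39, adjusted p = 0.0842, limma), A2 (0.42, 0.0647), A3 (0.39, 0.0869) or B1 (0.36, 0.0791). Without both arrays with a high ACTB ratio it was 0.44 with an adjusted p of 0.0525 (limma).

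Neither GNG2 probe set above the filter passed the test between times. For 224964_s_at the difference, 24 h minus 12 h, was 0.44 ± 0.28 in miR-28 cells (adjusted p = 0.491, limma) and 0.55 ± 0.28 in control cells (adjusted p = 0.328). For 223943_s_at it was 0.82 ± 0.37 in miR-28 cells (adjusted p = 0.277, limma) and -0.03 ± 0.37 in control cells (adjusted p = 0.985). In fits without 1 array its difference in miR-28 cells ran between 0.45 and 0.97. GNA13 206917_at was lower at 24 h on average, at -0.25 ± 0.13 in miR-28 cells (adjusted p = 0.386, limma) and -0.32 ± 0.13 in control cells (adjusted p = 0.214). GNG7 228831_s_at differed by -0.41 ± 0.12 in control cells (adjusted p = 0.0622, limma) and by -0.04 ± 0.12 in miR-28 cells. GNA12 224681_at differed by 0.49 ± 0.18 in miR-28 cells (adjusted p = 0.176, limma) and by 0.15 ± 0.18 in control cells. GNA12 221737_at differed by -0.12 ± 0.38 in miR-28 cells and by -0.66 ± 0.38 in control cells (adjusted p = 0.928 and 0.406, limma). The median over the 29 was -0.04 in miR-28 cells and 0.02 in control cells, beside -0.02 and -0.03 over all probe sets.

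**Figure D5:**
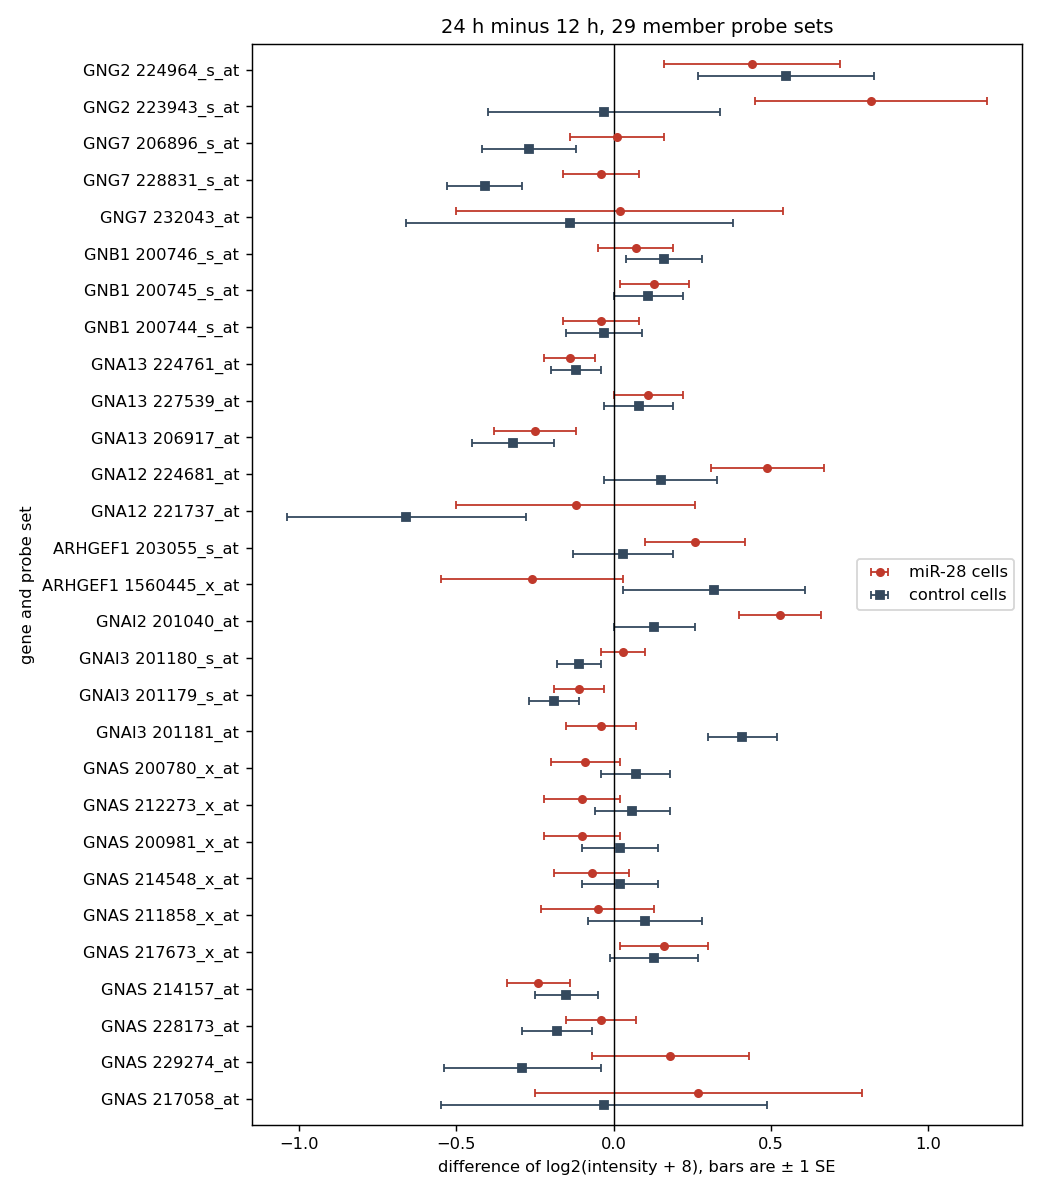
Difference between 24 h and 12 h in miR-28 cells and in control cells for the 29 member probe sets above the filter, as log2(intensity + 8) with bars of 1 SE. GNAI2 lies at 0.53 in miR-28 cells and at 0.13 in control cells, and GNAI3 201181_at at -0.04 in miR-28 cells and at 0.41 in control cells.

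The bulk populations of a genotype were also set against each other, A minus B over both times. limma called 0 of the 29 member probe sets in miR-28 cells and 0 in control cells, where 0% and 0.00366% of all probe sets were called. Before adjustment 2 members in miR-28 cells and 1 in control cells had a p under 0.05, as had 1310 and 2026 of all. For GNG2 224964_s_at, A exceeded B by 0.33 ± 0.28 in miR-28 cells (adjusted p = 1, limma) and by 0.35 ± 0.28 in control cells (adjusted p = 0.838). For GNG7 206896_s_at, A minus B was -0.17 ± 0.10 in miR-28 cells and 0.44 ± 0.10 in control cells (adjusted p = 1 and 0.188, limma). The GNA13 probe sets had differences between populations of -0.07 to 0.14.

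Other genes of the pathway were taken from 8 lists with 67 genes, of which 39 had a probe set above the filter, each gene read on its brightest. limma called 0 of the 39 between genotypes at 24 h and 0 at 12 h, where 2.75% and 0.165% of all probe sets were called, and 4 at 24 h and 2 at 12 h had an unadjusted p under 0.05. The count of 0 is near the background, and their median difference was 0.02 at 24 h and -0.05 at 12 h. Of the 7 measured genes around GNA13, the receptor S1PR2 averaged 1039.6 ± 103.9 in miR-28 cells and 1002.3 ± 75.1 in control cells at 24 h, and the receptor P2RY8 averaged 2568.1 ± 244.1 in miR-28 cells and 2538.2 ± 260.6 in control cells. RHOA differed by 0.06 ± 0.07 at 24 h and ARHGEF12, a relative of ARHGEF1, by -0.20 ± 0.17. The chemokine receptor CXCR4, which signals through Gi, differed by 0.06 ± 0.09 at 24 h, and CXCR5, the follicular chemokine receptor, by 0.41 ± 0.18. Of the other gamma subunits, 5 of 10 passed the filter, and their median difference was -0.10 at 24 h and -0.31 at 12 h, with GNG5 at -0.10 ± 0.07 and 0.12 ± 0.07.

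Between times, 1 of the 39 pathway genes (2.56%) was called higher at 24 h in miR-28 cells and 2 (5.13%) in control cells, and 0 lower in either, where 1.88% and 3.09% of all probe sets were called. At an unadjusted p under 0.05 there were 9 in miR-28 cells and 7 in control cells. ADCY3, an adenylyl cyclase, averaged 814.8 ± 80.3 at 24 h and 554.1 ± 96.7 at 12 h in miR-28 cells, a rise of 0.56 ± 0.13 (adjusted p = 0.0230, limma). In control cells ADCY3 averaged 901.1 ± 141.2 at 24 h and 633.2 ± 104.7 at 12 h, a rise of 0.50 ± 0.13 (adjusted p = 0.0313, limma). A second ADCY3 probe set was not called, at 0.20 ± 0.17 in miR-28 cells and 0.26 ± 0.17 in control cells (adjusted p = 0.625 and 0.473, limma). GNAL, a stimulatory alpha subunit best known from olfactory neurons, averaged 1639.1 ± 231.3 at 24 h and 1048.2 ± 220.9 at 12 h in control cells, a rise of 0.66 ± 0.14 (adjusted p = 0.0121, limma). In miR-28 cells this probe set differed by 0.38 ± 0.14 (adjusted p = 0.187, limma). The other 3 GNAL probe sets above the filter were not called in control cells, with differences of 0.48 ± 0.18 to 0.84 ± 0.23 (adjusted p = 0.145 and 0.0507, limma).

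The probe sets most like those of GNG2 and GNA13 were found by Pearson's r of log2 values over the 24 arrays, as a description. For GNG2 224964_s_at they were those of GSPT2 (r = 0.845), PDLIM1 (0.836) and DHRS7 (0.820), and with group means removed r was 0.410, 0.438 and 0.325. For GNA13 224761_at they were those of DHX33 (r = 0.855), CCNC (0.854) and PAX5 (0.854), and with group means removed r was 0.769, 0.817 and 0.763. Removing the group means lowered r more for the GNG2 probe set than for the GNA13 one. Nothing is read from this, since GNG2 was put forward with its difference between the groups known. The points share arrays, scaling and group means.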

How the data were processed

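RNA of 24 cultures was measured on Affymetrix arrays. The authors deposited 1 linear intensity per probe set and array, computed with MAS5 per the submitters' processing notes; its version and settings are not given in the sources used here. Trimmed means (2%) were equal across arrays at 500.07 to 500.08, so the authors' scaling was kept. Of 54675 probe sets, 62 controls were left out. Gene symbols came from the platform annotation.

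The fits used log2(intensity + 8), which understates changes of dim probe sets. A model with 4 means of genotype by time was fitted to 27306 probe sets with limma 3.58.1 and statmod 1.5.0 (R 4.3.3), with the 4 bulk populations as a random block (consensus correlation -0.0249). Tests were two-sided with Benjamini-Hochberg adjustment over all probe sets, and called at an adjusted p under 0.05. Populations were compared in a model with 8 means. The fits were tested on simulated data whose noise was independent between arrays, so that test could not check the random block. Arrays were grouped by their titles, and no pair of a group held identical values. Alternatives changed the pseudocount, filter, normalization, block, variance prior, probe-set choice and arrays used.

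The members, the pathway lists and the tests were chosen with earlier results of these data known. The rule for probe sets described in detail took all those of GNA13 and GNG2, the brightest of each other member and any called one; the 13 of them above the filter entered the alternatives. GNG7 228831_s_at and 232043_at, GNA12 221737_at, ARHGEF1 1560445_x_at and GNAI3 201179_s_at were named in addition after their values were seen. Replicates are separate inductions of 2 populations per genotype, so p-values measure the spread between arrays and not that between populations. An array has no read depth; the number of arrays limits the precision.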

Additional observations from a re-analysis of the deposited data

Results flagged for a closer look

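Among 52 groups of 6 arrays tested over the 13 probe sets above the filter that were described in detail, 5 had a highest or lowest array whose gap to the nearest other array exceeded Dixon's critical value of 0.625 of the range on the log2 scale; chance gives about 1 in 20. GNA13 224761_at was 15485.7 in control B2 at 24 h, while the other control arrays at 24 h lay between 11243.0 and 12283.1. GNAI2 201040_at was 854.5 in control B1 at 24 h, and the others lay between 1217.8 and 1342.2. GNAI3 201180_s_at was 5627.7 in control A2 at 12 h, and the others lay between 4976.2 and 5118.6. GNAI3 201181_at was 709.1 in miR-28 A2 at 12 h, and the others lay between 601.0 and 630.0. GNG2 223943_s_at was 10.3 in miR-28 B1 at 12 h, and the others lay between 58.9 and 103.9. Control B2 at 24 h also had the highest ACTB 3′ to 5′ ratio, at 1.59 on the log2 scale, and its part in the GNA13 value was not tested.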

How the results depend on the processing

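The count of called member probe sets between genotypes, 1 at 24 h and 1 at 12 h, was 0 at both times with population means as the unit and with population A or B alone, where fewer samples enter. At 24 h it was 2 with median centring, with an intensity trend in the variance prior and with 1 probe set per gene. Between times, the count of 1 was 0 in miR-28 and control cells with population means, with either population alone and with no filter on low values, and in control cells also 0 with median centring, with 1 probe set per gene and, in an alternative chosen after seeing the data, without the 2 arrays with a high ACTB ratio. Leaving out 1 array at a time gave 1 to 2 calls between genotypes at 24 h and 0 to 1 at 12 h, and between times 0 to 1 in miR-28 cells and 0 to 2 in control cells. GNG2 224964_s_at kept its sign in all 37 alternatives and its call in 34 at 24 h and 33 at 12 h, with differences of 1.17 to 1.54 and 1.29 to 1.60. GNAI2 kept its call over time in miR-28 cells in 25 of 37, and GNAI3 201181_at in control cells in 23 of 36. No called result changed sign. With a replicate block on the array labels each of these 4 counts stayed at 1; arrays of the same label did not deviate together (r of -0.107 to 0.063), so the labels do not pair the arrays. Over all probe sets, the calls were 751 at 24 h, 45 at 12 h, 514 over time in miR-28 cells and 843 in control cells. With no filter they were 302, 21, 97 and 249, with population means 0 each and with the populations of 1 letter 0 to 5. With no population block they were 618, 37, 554 and 893, fewer between genotypes and more over time. At 12 h they were 92 with the intensity trend and 26 with the replicate block, and 474 over time in control cells with median centring, and 784 over time in miR-28 cells with the trend. Without 1 array they ranged over 524 to 827, 21 to 58, 334 to 610 and 493 to 903. Median centring made 68.2% of the calls at 24 h higher, against 46.3% in the fit as designed, 88.9% against 52.1% over time in miR-28 cells, and 62.7% against 51.4% in control cells. The cause of these changes was not tested.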
